A study of Mus musculus with 6 samples.

Results

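The genes described here are 9 genes of thermogenic adipocytes, the heat-producing fat cells of brown and beige fat, taken from the deposited count table by their symbols. They were 4 transcriptional regulators, Prdm16, Ebf2, Ppargc1a and Ppara, and 5 effectors, Ucp1, Dio2, Cpt1b, Elovl3 and Cidea. All 9 were among the 34590 symbols of the table. The libraries came from 3 mice, numbered 1 to 3, whose inguinal glands (gland number 4) carried grafted mammary epithelium. The left gland held WT.EGFP+ epithelium and the right gland Adamts18-/-.EGFP+ epithelium, which lacks the secreted protease Adamts18. Genotype and body side therefore cannot be told apart. The hosts were WT females whose own epithelium had been cleared, so the fat pad around either graft was WT. The mutant allele lacks exons 8 and 9. The Adamts18-/- and EGFP lines were kept on the C57BL/6JOlaHsd background, and the study's methods do not name the strain of the hosts. The donor epithelium of both groups carried the EGFP transgene, driven by a chicken β-actin promoter. The 3 pairs were 3 separate experiments with 3 donors, so mouse, donor and experiment cannot be told apart. The age of the hosts and the time since grafting are not given for these glands in the sources used here.

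White adipocytes store lipid, whereas brown and beige adipocytes burn it to make heat. Noradrenaline acting on β-adrenergic receptors raises cAMP, which releases fatty acids and induces Ucp1, the mitochondrial protein that lets protons leak back without making ATP. Prdm16 and Ebf2 set the identity of these cells, Ppargc1a drives the making of mitochondria and Ppara drives fatty acid oxidation. Dio2 makes active thyroid hormone inside the cell, Cpt1b carries fatty acids into mitochondria, Elovl3 lengthens very long chain fatty acids and Cidea sits on lipid droplets. The inguinal fat pad that surrounds the mammary ducts is white, and is the depot in which beige adipocytes are best known.

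The promoters of Ucp1, Ppara and Dio2 are shown because these genes differed in how they varied between the mice. They are RefSeq sequences of GRCm38.p6 from 250 bases before to 50 bases after the gene start, 5′ to 3′ on the strand of the gene, at chr8:83290098-83290397 (plus strand), chr15:85735526-85735825 (plus strand) and chr12:90738989-90739288 (minus strand). Capitals mark the motifs found on either strand: AGGTCA, the half-site read by nuclear receptors, TGACGTCA, the cAMP response element, and TGACG, which is its half-site and lies inside it.
Ucp1: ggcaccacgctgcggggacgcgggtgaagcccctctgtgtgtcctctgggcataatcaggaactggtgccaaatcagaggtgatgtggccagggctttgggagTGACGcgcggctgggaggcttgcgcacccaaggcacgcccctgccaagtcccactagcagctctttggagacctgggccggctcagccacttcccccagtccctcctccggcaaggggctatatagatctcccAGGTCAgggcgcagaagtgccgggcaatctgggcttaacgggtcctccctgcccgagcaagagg
Ppara: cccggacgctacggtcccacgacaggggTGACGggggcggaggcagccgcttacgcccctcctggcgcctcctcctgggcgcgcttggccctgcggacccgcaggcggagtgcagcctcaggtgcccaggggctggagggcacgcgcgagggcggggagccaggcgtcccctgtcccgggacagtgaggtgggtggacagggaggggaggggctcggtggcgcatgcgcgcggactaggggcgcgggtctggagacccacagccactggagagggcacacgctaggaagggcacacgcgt
Dio2: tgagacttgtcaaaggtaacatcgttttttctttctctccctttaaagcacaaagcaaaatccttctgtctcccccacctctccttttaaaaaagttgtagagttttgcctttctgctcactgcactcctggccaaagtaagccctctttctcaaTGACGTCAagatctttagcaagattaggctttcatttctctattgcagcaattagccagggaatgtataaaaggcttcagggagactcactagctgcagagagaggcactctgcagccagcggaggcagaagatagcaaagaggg
In the Ucp1 promoter AGGTCA began at position -14 relative to the start and TGACG at -147. In the Dio2 promoter the full cAMP response element began at -95, and in the Ppara promoter TGACG began at -222. Among 32851 promoters of this length, 16.3% held AGGTCA, 1.79% held TGACGTCA and 20.8% held TGACG on either strand. Of the 2 other promoters that could be matched, that of Prdm16 held none of these motifs and that of Ppargc1a held TGACG at -49. These matches describe the letters only. In the GENCODE M21 annotation of GRCm38, Ucp1 spans 83290352 to 83298452 on chromosome 8, Ppara 85734983 to 85802819 on chromosome 15, Dio2 90724552 to 90738438 on chromosome 12 and Elovl3 46131897 to 46135694 on chromosome 19. The starts differ between the annotations: the RefSeq window of Dio2 lies wholly upstream of its GENCODE span and that of Ppara lies inside it. All 9 are annotated as protein coding.

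By the labels, the RNA is that of GFP+ mammary epithelial cells separated by FACS, a sort on fluorescence, while the study writes of profiled glands. The libraries held total counts of 53875123 to 71595924, at which 3 counts correspond to 0.0419 to 0.0557 CPM (counts per 1000000 counts of the library, scaled by TMM). Epithelial markers summed to 1515 to 2709 CPM. Transcripts of other cells were abundant: 19 white adipocyte markers, led by Car3 and Cfd, summed to 15888 to 41358 CPM, 13 fibroblast markers, led by Col3a1 and Dcn, to 10189 to 14436 CPM, and 10 leukocyte markers, led by Lyz2 and Csf1r, to 1068 to 2834 CPM. The 10 endothelial markers, led by Pecam1 and Vwf, summed to 843 to 1400 CPM. No marker on these lists was at 0 in all 6 libraries, and the white adipocyte sum was above the epithelial sum in each, which goes against the label of a sorted epithelial population. The glands of mouse 3 stood apart, with white adipocyte markers at 20213 (WT) and 15888 CPM (Adamts18-/-) against 35967 to 41358 CPM in the other 4 libraries. In such mixed tissue, fewer cells of a type and less RNA per cell cannot be told apart. The targeted gene Adamts18 was at 3.61, 9.92 and 6.8 CPM in the WT gland of mouse 1, 2 and 3 and at 2.75, 4.87 and 3.29 CPM in the Adamts18-/- glands. It was lower in 3 of 3 mice (log2 fold change -0.83, SE 0.19, unadjusted p = 0.00922 by edgeR's quasi-likelihood test, and 0.0582 without mouse 2). Without the mouse as a block its unadjusted p was 0.0767 by edgeR, and with epithelial scaling, described below, its change was -0.33 (unadjusted p = 0.299).

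Levels of the 9 genes spanned more than 2 orders of magnitude per kilobase of exon. Ranked by the median over the 6 libraries, Cidea stood highest at 9.71 CPM per kb (7.68 to 13.6), followed by Ebf2 at 8.48 CPM per kb (5.05 to 10.6). Ppara at 1.41 (0.676 to 1.72) and Prdm16 at 1.39 CPM per kb (0.869 to 1.64) came next, and then Ppargc1a at 0.82 CPM per kb (0.578 to 0.981). The ranges of Cidea and Ebf2 overlapped, and with the longest transcript as the length Ebf2, at 11.3 CPM per kb, came before Cidea. The ranges of Ppara, Prdm16 and Ppargc1a also overlapped. Below them lay Ucp1 at 0.269 CPM per kb (0.171 to 0.879), Dio2 at 0.176 (0.14 to 0.204), Cpt1b at 0.0862 (0.0595 to 0.116) and Elovl3 at 0.049 CPM per kb (0.00835 to 0.585). Ucp1 overlapped both Ppargc1a above it and Dio2 below it, Dio2 and Cpt1b did not, and Elovl3 ranged from below Cpt1b to above Dio2. The gene that defines thermogenic fat was thus among the scarcest of the 9, while a lipid droplet protein and an identity factor were the most abundant.

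**Figure D1:**
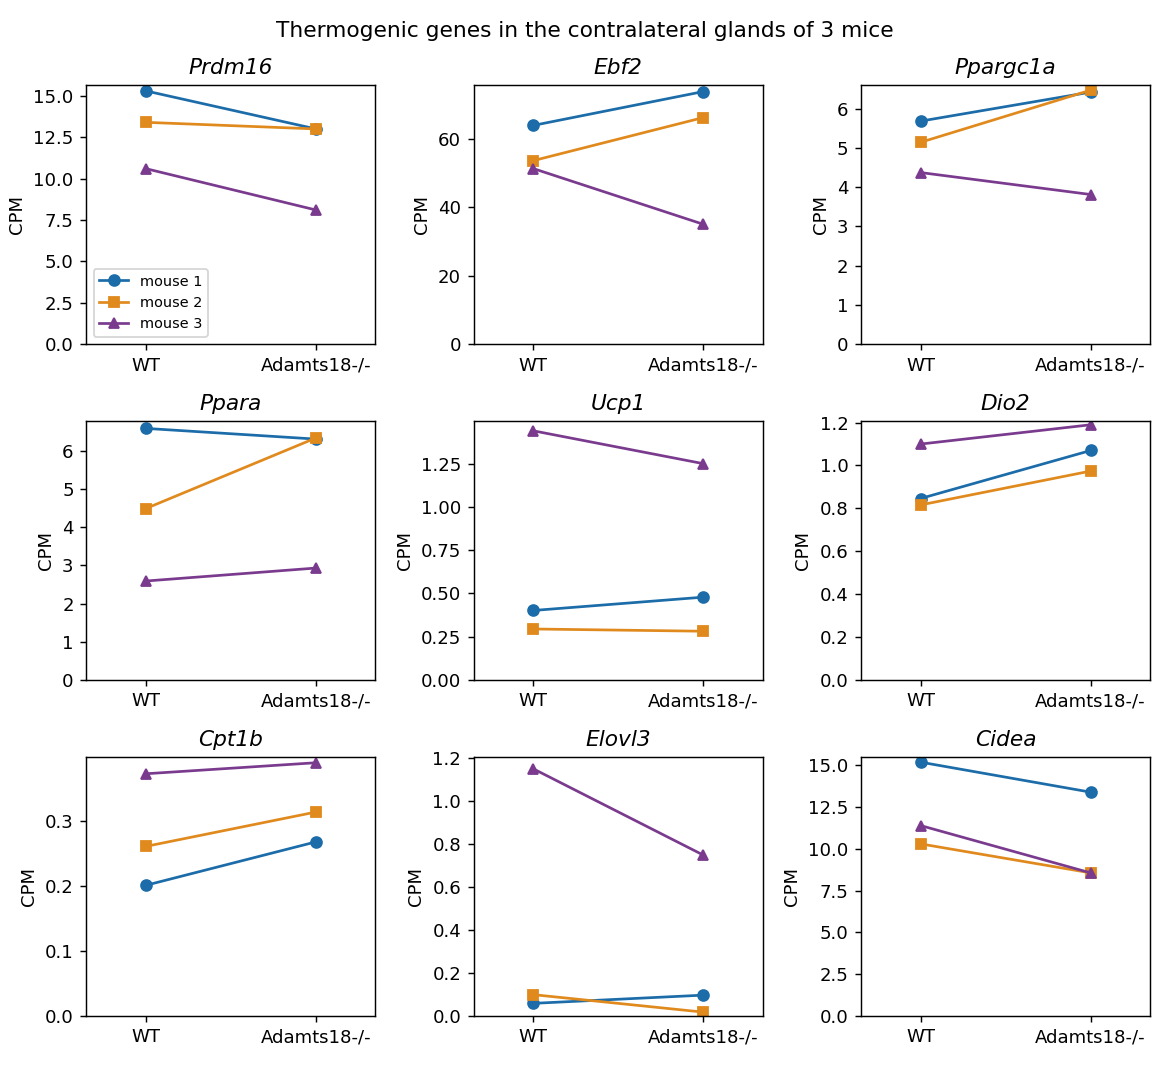
Each panel shows 1 gene, with the level in CPM (linear axis from 0) in the WT and the Adamts18-/- gland of mouse 1 (circles), mouse 2 (squares) and mouse 3 (triangles), and a line joining the 2 glands of a mouse. WT and Adamts18-/- values overlap in all 9 panels. The line of mouse 3 lies above the other 2 for Ucp1, Dio2, Cpt1b and Elovl3 and below them for Prdm16, Ebf2, Ppargc1a and Ppara.

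The first comparison asked whether these genes differed between glands with WT and with Adamts18-/- epithelium. By the thresholds of the study, a gene was called where its fold change lay under 0.8 or over the inverse of 0.8 and its unadjusted p under 0.05, here in a fit with the mouse as a block. Of the 9 genes 8 passed the filter on low counts, and Elovl3 did not. Of the 8, 0 were called, where 3.01% of all 17345 genes tested were called (1.84% lower and 1.17% higher). None of the 8 had an unadjusted p under 0.05 by edgeR in this fit (3.86% of all genes) and the smallest adjusted p among them was 0.987 (quasi-likelihood test of edgeR, Benjamini-Hochberg adjustment). DESeq2 gave 0 of the 8 an adjusted p under 0.05 either, where 0.409% of all genes had one, and edgeR gave 0% of all genes one. The fitted change was below 0 for 4 and above 0 for 4, with a median log2 fold change of 0.048 against 0.00065 over all genes. WT and Adamts18-/- libraries overlapped in CPM for all 9 genes, where 4.94% of all genes tested did not overlap.

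Among the regulators, Prdm16, a zinc finger protein that steers precursors towards brown fat, was at 15.3, 13.4 and 10.6 CPM in WT glands (mice 1, 2 and 3, in this order throughout) and at 13, 13 and 8.1 CPM in their Adamts18-/- glands. The Adamts18-/- gland had the lower value in 3 of 3 mice, but by little in mouse 2. Its log2 fold change was -0.22 (SE 0.12, unadjusted p = 0.122 by edgeR's quasi-likelihood test, as for the genes that follow). Ebf2, which marks committed brown and beige precursors and opens chromatin at their genes, was at 63.9, 53.6 and 51.3 CPM in WT glands and at 73.8, 66.2 and 35 CPM in Adamts18-/- glands. Here the mice were divided: the Adamts18-/- gland was higher in mice 1 and 2 (log2 differences 0.21 and 0.31) and lower in mouse 3 (-0.55). The fitted change was -0.0096 (SE 0.19, unadjusted p = 0.962). Without mouse 3 it was 0.26 (SE 0.074, unadjusted p = 0.0148, adjusted p = 0.426 by edgeR, with 0.183 to 1 over all alternatives), a fold change still inside the threshold.

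Ppargc1a, a coactivator for the nuclear receptors and factors that build mitochondria, was at 5.68, 5.14 and 4.37 CPM in WT glands and at 6.42, 6.47 and 3.81 CPM in Adamts18-/- glands. It had the same split as Ebf2, with differences of 0.18 and 0.33 in mice 1 and 2 and -0.20 in mouse 3. Fitted over the 3 mice, the log2 fold change of Ppargc1a was 0.11 (SE 0.17, unadjusted p = 0.554). Ppara, the nuclear receptor that senses fatty acids, was at 6.59, 4.49 and 2.59 CPM in WT glands and at 6.31, 6.34 and 2.93 CPM in Adamts18-/- glands. The contralateral glands differed most in mouse 2, by 0.50, and by -0.063 and 0.17 in mice 1 and 3. The fitted change of Ppara was 0.20 (SE 0.17, unadjusted p = 0.294).

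Of the effectors, Ucp1 had 28, 18 and 81 counts in WT glands and 25, 17 and 77 counts in Adamts18-/- glands. These are 0.281 to 0.478 CPM in the 4 glands of mice 1 and 2 and over 1 CPM in both glands of mouse 3. The contralateral glands of a mouse lay near each other, with log2 differences of 0.23, -0.059 and -0.19, and the fitted change was -0.018 (SE 0.23, unadjusted p = 0.942). The 95% Poisson intervals, which cover counting error only, were 18.6 to 40.5 and 16.2 to 36.9 counts in mouse 1 and 64.3 to 101 and 60.8 to 96.2 counts in mouse 3, so that the pair of a mouse overlapped and mouse 3 stood clear of mouse 1.

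Dio2 was at 0.846, 0.816 and 1.1 CPM in WT glands and at 1.07, 0.974 and 1.19 CPM in Adamts18-/- glands. It had the higher value in the Adamts18-/- gland in 3 of 3 mice, with 56 to 73 counts there and 50 to 62 counts in WT glands. Its log2 fold change was 0.23 (SE 0.19, unadjusted p = 0.286). Cpt1b, the isoform of muscle and brown fat, was at 0.201, 0.261 and 0.373 CPM in WT glands and at 0.268, 0.314 and 0.39 CPM in Adamts18-/- glands. It too was higher on the Adamts18-/- side in each mouse, on 14 to 24 counts a library (log2 fold change 0.24, SE 0.26, unadjusted p = 0.427). A readthrough transcript annotated on the same strand, Gm44502, overlaps Cpt1b, so that the counting may have divided their reads.

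Elovl3 had 4, 6 and 65 counts in WT glands and 5, 1 and 46 counts in Adamts18-/- glands. In mice 1 and 2 it was at 0.0165 to 0.0979 CPM, around the level of 3 counts, and in mouse 3 at 1.15 and 0.748 CPM. A fit with no low count filter gave a log2 fold change of -0.60 (SE 0.51, unadjusted p = 0.289). Elovl3 overlaps Pitx3 on the opposite strand, which had 1 to 8 counts a library.

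Cidea came nearest to the threshold. It was at 15.2, 10.3 and 11.4 CPM in WT glands and at 13.4, 8.56 and 8.56 CPM in Adamts18-/- glands, with the lower value in the Adamts18-/- gland of 3 of 3 mice (log2 differences -0.18, -0.26 and -0.41). The groups still overlapped, because levels differed between mice. Its log2 fold change was -0.29 (SE 0.11), a fold change of 0.821, with unadjusted p = 0.0513. The unadjusted p of Cidea was under 0.05 with limma-voom (0.0496), upper quartile scaling (0.0486), library size scaling (0.0425) or no low count filter (0.0488), with the fold change still inside the threshold. An overlapping transcript on the opposite strand, B430212C06Rik, had 85 to 192 counts against 519 to 1059 counts of Cidea, and the strand setting of the counting is not given in the sources used here. In all, 4 of the 9 genes (Prdm16, Dio2, Cpt1b and Cidea) had differences of one sign in all 3 mice, as had 23.4% of all genes tested.

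**Figure D2:**
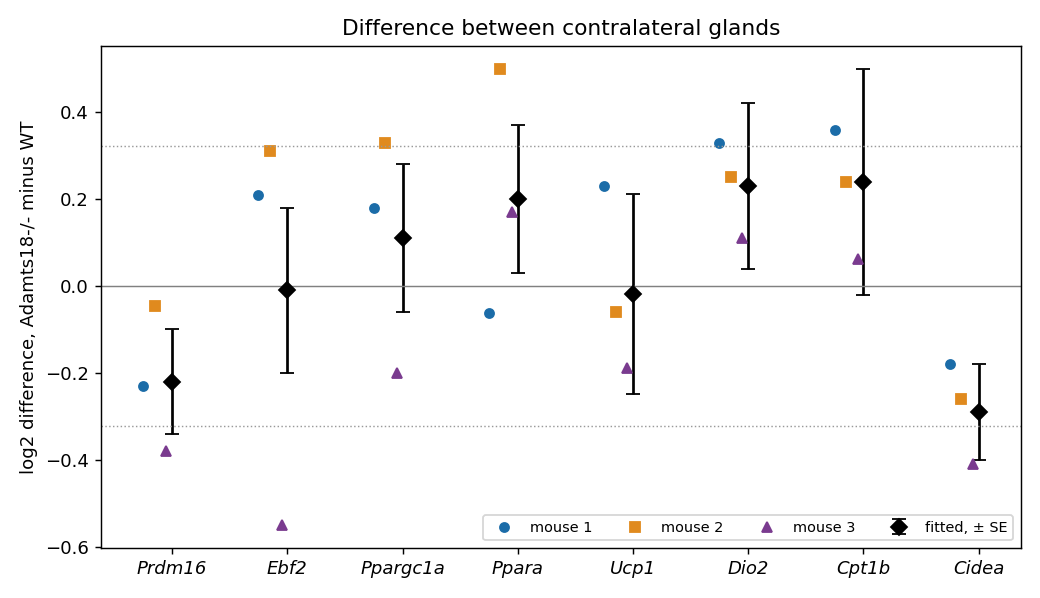
Log2 difference between the Adamts18-/- and the WT gland for the 8 genes that passed the low count filter, with 1 coloured point a mouse and a black diamond for the fitted change with its standard error. The dotted lines stand at a fold change of 0.8 and its inverse. No diamond lies beyond them, and the points of Ebf2, Ppargc1a, Ppara and Ucp1 fall on both sides of 0.

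Markers of other cells differed between the sides, and their part in these values was not tested. All 19 white adipocyte markers had a fitted change below 0, with 0 called and a median of -0.11. The mice were split: their sum was lower in the Adamts18-/- gland of mouse 1 (35967 against 39987 CPM) and mouse 3 (15888 against 20213 CPM). In mouse 2 it was higher there (41358 against 37625 CPM). Of 18 skeletal muscle markers, led by Myh4 and Atp2a1, 16 had a fitted change above 0 and 0 were called, with a median of 2.96. Their sum was 418, 1204 and 3889 CPM in WT glands and 15060, 15366 and 2651 CPM in Adamts18-/- glands, so mice 1 and 2 had far more on the Adamts18-/- side and mouse 3 did not. Cpt1b, which muscle also uses, was at 0.201 CPM in the WT and 0.268 CPM in the Adamts18-/- gland of mouse 1, where the muscle sum was at 418 and 15060 CPM. Of 16 epithelial markers 9 were called lower (Elf5, Krt14, Krt17, Krt18, Krt19, Krt7, Krt8, Prlr and Trp63) and 0 higher, with a median of -0.41, and the groups did not overlap in their sum (1941 to 2709 CPM in WT, 1515 to 1766 CPM in Adamts18-/- glands). When the libraries were scaled to the epithelial markers, the median of all genes rose by 0.50 and Prdm16, Ebf2, Ucp1 and Cidea had fitted changes of 0.28, 0.48, 0.48 and 0.21. With that scaling Ppara (0.70) and Dio2 (0.73) were called higher, where 27.3% of all genes were called.

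The second comparison was between the mice, in the same fit with the genotype kept as a term. The 2 glands of a mouse served as its replicates there, so the p-values between mice do not measure the spread among animals. For 8 of the 9 genes both glands of mouse 3 lay outside the other 4 libraries. Ucp1, Dio2, Cpt1b and Elovl3 were higher there, as were 24.2% of all genes tested, and Prdm16, Ebf2, Ppargc1a and Ppara were lower, as were 24.1%. Cidea was in between, and was highest in mouse 1. In mouse 3, 4 of the 5 effectors and the 4 regulators thus lay on opposite sides of the other libraries, but Dio2 and Cpt1b by little. The nearest values were 1.1 CPM in mouse 3 and 1.07 CPM in mouse 1 for Dio2. For Cpt1b they were 0.373 CPM in mouse 3 and 0.314 CPM in mouse 2. The sum over the 4 regulators in mouse 3 was 68.8 (WT) and 49.9 CPM (Adamts18-/-) against 76.6 to 99.5 CPM elsewhere.

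Ucp1 had a mean level in mouse 3 that was 3.7-fold that of mice 1 and 2 (between mice, unadjusted p = 0.00133, adjusted p = 0.0586 by edgeR). For Elovl3 the ratio was 14.2 (unadjusted p = 0.00076, adjusted p = 0.0341 by edgeR with no low count filter, where 4.5% of all genes passed). Ppara went the other way, at 2.15-fold more in mice 1 and 2 than in mouse 3 (unadjusted p = 0.00672, adjusted p = 0.0833 by edgeR). Prdm16 and Cidea had unadjusted p of 0.0203 and 0.0132, with adjusted p of 0.124 and 0.105 by edgeR. Ebf2 (unadjusted p = 0.086), Ppargc1a (unadjusted p = 0.0863), Cpt1b (unadjusted p = 0.176) and Dio2 (unadjusted p = 0.367) had larger values. In all, 4 of 8 had an unadjusted p under 0.05, against 27.2% of all genes tested, and 0 had an adjusted p under 0.05, against 0.628% (edgeR's quasi-likelihood F test with Benjamini-Hochberg adjustment). With DESeq2, by which 20.4% of all genes passed, the adjusted p was 0.00266 for Ppara, 0.0129 for Ucp1, 0.0239 for Cidea and 0.0459 for Prdm16. It gave no adjusted p for Cpt1b. Over all alternatives the adjusted p lay between 0.00266 and 0.653 for Ppara, between 0.000659 and 0.574 for Ucp1, between 0.00956 and 0.873 for Cidea and between 0.0459 and 0.822 for Prdm16. Without mouse 3 the unadjusted p was 0.14 for Ucp1, 0.208 for Ppara and 0.449 for Prdm16 by edgeR, and for Cidea it was 0.00309, while without mouse 1 that of Cidea was 0.748 and that of Prdm16 0.0553.

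**Figure D3:**
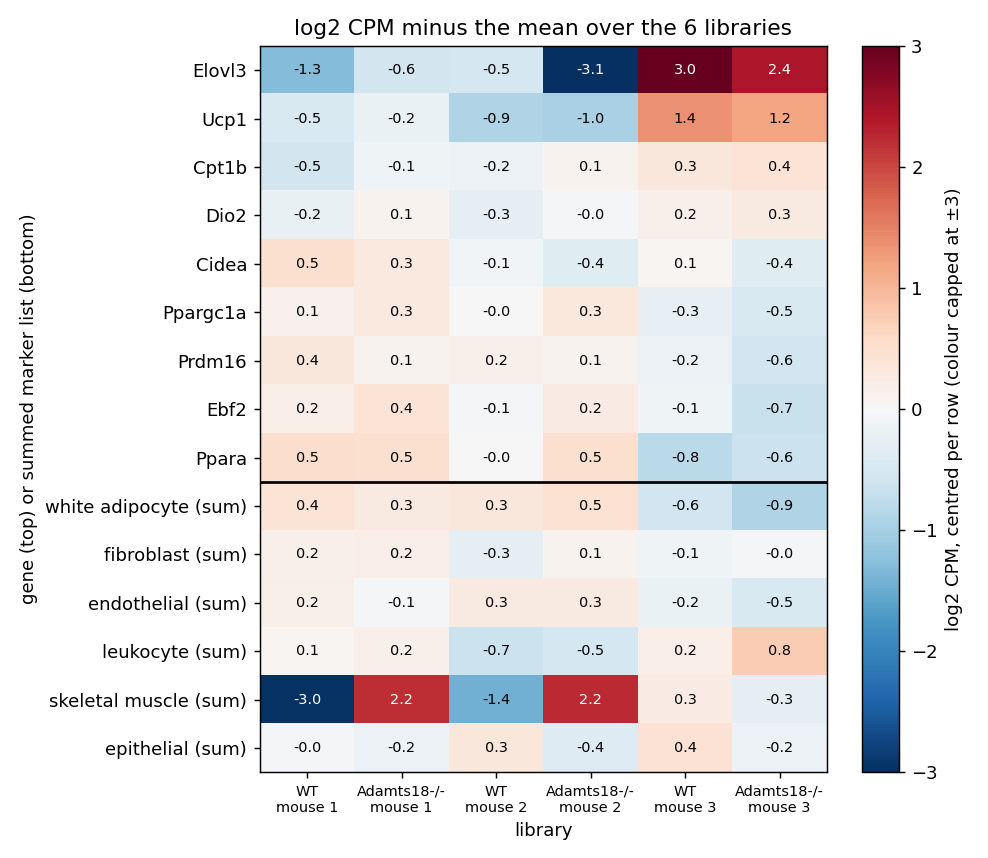
Level of each gene (top 9 lines) and the summed level of 6 marker lists (bottom 6 lines) in each library, as log2 CPM minus the mean over the 6 libraries, with the libraries of a mouse side by side and red above, blue below the mean. Both columns of mouse 3 are red for Elovl3 and Ucp1 and blue for Ppara, Ebf2 and the white adipocyte sum, while the skeletal muscle sum is high in the Adamts18-/- glands of mice 1 and 2.

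Because the white adipocyte sum was lower in mouse 3 (0.466 of its level in mice 1 and 2), each gene was also set against the summed counts of 17 white adipocyte markers of its own library, which took 1.64 to 3.91% of the total count. Ucp1 was at 10.2, 7.9 and 72.4 counts per 1000000 counts of these markers in the WT glands and at 13.5, 6.87 and 80.2 in the Adamts18-/- glands of mice 1, 2 and 3. Since the divisor itself was lower in mouse 3, the median ratio of mouse 3 to mice 1 and 2 over all 17345 genes tested was 2.17 on this scale (0.999 in CPM), and each ratio is read against that value. It was 7.93 for Ucp1, 29.5 for Elovl3, 3.2 for Cpt1b and 2.7 for Dio2, all above the median gene. For Cidea, Ppargc1a, Prdm16 and Ebf2 it was 1.42 to 1.79, below the median gene. Ppara, at 167, 121 and 130 in WT and 178, 155 and 187 in Adamts18-/- glands, had a ratio of 1.02. The choice of mouse 3 followed from the values seen.

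On that scale the difference between the sides was 0.32 ± 0.22 for Ppara and 0.23 ± 0.094 for Ppargc1a (log2, Adamts18-/- minus WT, SD over 3 pairs), higher in 3 of 3 mice for either gene. Cpt1b differed by 0.37 ± 0.22 and Dio2 by 0.36 ± 0.21, also higher in 3 of 3 mice. Prdm16 was lower in 3 of 3 mice, by -0.099 ± 0.076, and so was Cidea, by -0.16 ± 0.21. Ebf2 differed by 0.11 ± 0.29, Ucp1 by 0.12 ± 0.3 and Elovl3 by -0.70 ± 1.8. The divisor, as a share of the total count, was itself lower on the Adamts18-/- side in mouse 1 (3.44 against 3.84%) and mouse 3 (1.64 against 2.07%). In mouse 2 it was higher there (3.91 against 3.76%). White adipocyte scaling of the fit raised all genes by 0.12 at the median. In CPM, Ppara and Ppargc1a were each higher in 2 of 3 mice. The share of all genes higher in 3 of 3 mice on this scale was not computed. An exact two-sided permutation test over 3 pairs cannot go below 0.25, and it gave 0.25 for 6 of the 9 genes and 0.75 for Ebf2, Ucp1 and Elovl3.

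**Figure D4:**
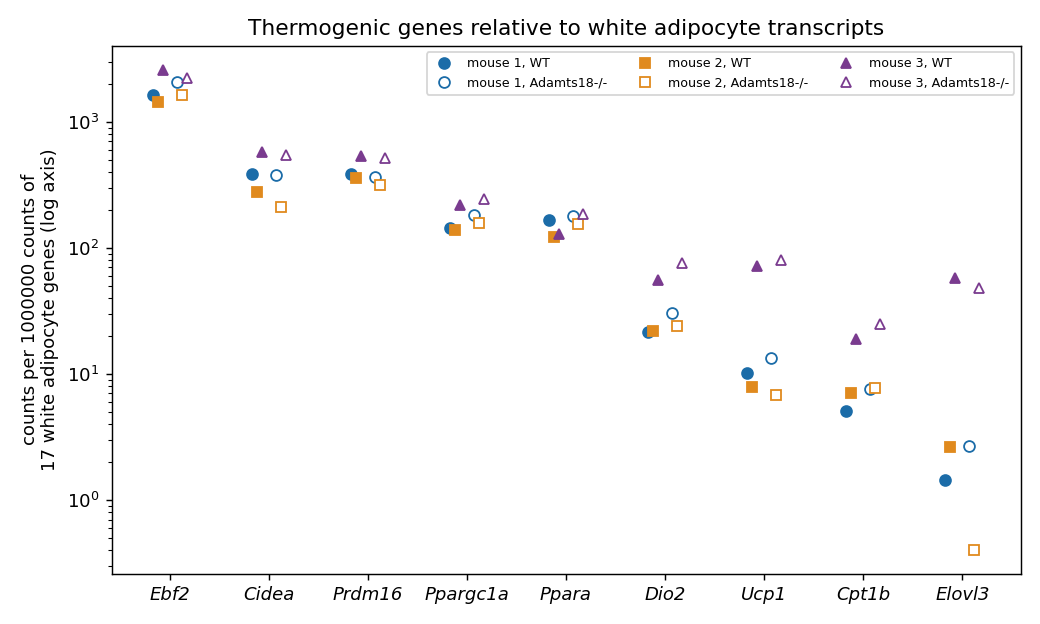
Level of each gene in counts per 1000000 counts of 17 white adipocyte genes of the same library (log axis), with filled symbols for WT and open symbols for Adamts18-/- glands and a colour and shape for each mouse. The purple triangles of mouse 3 lie above all other symbols for every gene but Ppara, and the gap is widest for Elovl3 and Ucp1. For Ppara they do not stand clear of the others. On this scale 97.2% of all genes tested had a ratio of mouse 3 to mice 1 and 2 above 1.

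The genes with the profile closest to a member over the 6 libraries were found by the root mean square distance between centred log2 CPM values. For Ucp1, with an SD of 0.98 over the libraries, they were Mup11 (distance 0.133), Mogat2 (0.152) and Fam26f (0.174). Mogat2, an enzyme of triglyceride synthesis, was at 3.97, 2.5 and 14.8 CPM in WT and at 3.86, 2.69 and 12.3 CPM in Adamts18-/- glands. Mup11 belongs to a family of near-identical genes, so its counts are uncertain. For Ppara the nearest were Osbp2 (0.0962), Raver2 (0.125) and Rgs7bp (0.13), and for Ebf2 they were Gm15417 (0.0516), the bicarbonate transporter Slc4a4 (0.0518) and Gng7 (0.0649). Between members the closest profiles were those of Ebf2 and Ppargc1a (0.121), followed by Prdm16 and Ppargc1a (0.17). Dio2 and Cpt1b, like Ebf2 and Prdm16, were at 0.177. Many genes outside the members lay closer: Ppargc1a ranked 169 among the genes nearest to Ebf2 and 1592 among those nearest to Prdm16. Ucp1 lay at 0.715 or more from each of the other 7 that passed the filter. Ucp1 and Ppara were the farthest apart (1.39).

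A wider list of 53 thermogenic pathway genes gave the setting. Of the 50 tested, 2 were called lower and 2 higher, or 8% against 3.01% of all genes, with a median log2 fold change of -0.041. With 1 mouse left out, 1 gene was called lower in each case, and 1, 3 and 6 were called higher without mouse 1, 2 and 3. Among the signals and receptors, the adrenergic receptor Adrb1 was called lower, from 5, 6.15 and 5.38 to 4.15, 3.88 and 3.97 CPM (log2 fold change -0.46, SE 0.15, unadjusted p = 0.0336). Adrb3, the main such receptor of mouse fat cells and the most abundant gene on the list, is added after its values were seen and was not called, at 394, 323 and 234 CPM in WT and 348, 364 and 181 CPM in Adamts18-/- glands (-0.13, SE 0.13, unadjusted p = 0.389). Adrb1 was not called with any mouse left out (unadjusted p = 0.0816, 0.149 and 0.0508).

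Of 11 markers used to tell brown from beige fat, Cited1 was called lower and Tbx1 higher. Cited1, a beige marker that luminal mammary cells also express, was at 57.6, 59.6 and 83.9 CPM in WT and at 27.3, 27.2 and 42.6 CPM in Adamts18-/- glands, and the groups did not overlap (-1.06, SE 0.073, unadjusted p = 4.45e-05). The 9 epithelial markers above were also called lower, and the median over the 16 on that list was -0.41. With epithelial scaling the change of Cited1 was -0.57 (unadjusted p = 0.0435 by edgeR's quasi-likelihood test). The part of epithelial content in the change of Cited1 was not tested. By qRT-PCR the study reports lower Cited-1, taken as a Yap/Taz target, in glands of pubertal Adamts18-/- mice. Tbx1 was at 0.674, 0.603 and 0.888 CPM in WT and at 1.68, 1.63 and 1.64 CPM in Adamts18-/- glands, also without overlap (1.21, SE 0.22, unadjusted p = 0.00315). Both were called with any mouse left out. The adjusted p of the 4 called genes of the pathway list lay between 0.771 and 0.987 by edgeR. For Cited1 it was 9.45e-18 with DESeq2 and 0.00603 by edgeR without mouse 3, and it lay between 0.179 and 1 in the other alternatives. For Tbx1 it was 0.396 with DESeq2, and over the alternatives it lay between 0.000294 (epithelial scaling) and 1.

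None of the 12 activating transcription factors was called (10 with a fitted change below 0), none of the 5 repressors (5 below 0) and none of the 14 mitochondrial and futile cycle effectors (7 below 0). Among the last, Ckmt2, the creatine kinase of muscle mitochondria, and Cox7a1, a respiratory chain subunit shared by muscle and brown fat, were named after their values were seen. Ckmt2 was at 0.817, 2.12 and 3.77 CPM in WT and at 12.7, 19.9 and 2.38 CPM in Adamts18-/- glands (2.32, SE 1.1, unadjusted p = 0.0909), and Cox7a1 at 2.24, 1.97 and 3.04 and at 6.25, 7.01 and 2.02 CPM (0.94, SE 0.54, unadjusted p = 0.143). Both were high in the libraries with the most skeletal muscle transcripts.

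Between mice, 24 of the 50 pathway genes had an unadjusted p under 0.05, against 27.2% of all genes, and 0 an adjusted p under 0.05 (edgeR). Of the 11 brown and beige markers, 7 had a higher mean CPM in mouse 3 than in mice 1 and 2 and 4 a lower one, with ratios from 0.472 to 4.35 (median 1.47). The ends of that range, named after their values were seen, were Zic1, a marker of classical brown fat, at 0.472 and the beige marker Tmem26 at 4.35, the latter with 15.4 CPM in the Adamts18-/- gland of mouse 3 and 4.64 CPM in its WT gland. Leukocyte markers summed to 1.62-fold more in mouse 3, and their part in these ratios was not tested. Of the 14 mitochondrial and futile cycle effectors 5 were higher in mouse 3 and 9 lower (0.345 to 1.87, median 0.928), of the 12 activating transcription factors 2 were higher and 10 lower (median 0.781), and all 5 repressors were lower (median 0.616).

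Fatty acid oxidation genes, which include known targets of Ppara, were not called in either direction. Of 21 tested, 18 had a fitted change below 0 and 3 above 0, with a median of -0.066, and 11 had an unadjusted p under 0.05 between mice, against 27.2% of all genes. Among the most abundant was Ucp2, a relative of Ucp1, at 452, 574 and 456 CPM in WT and 475, 476 and 495 CPM in Adamts18-/- glands. Mouse 3 did not stand apart for Ucp2 (between mice, unadjusted p = 0.49). Angptl4, an inhibitor of lipoprotein lipase named after its values were seen, was the 1 gene of the list with an adjusted mouse p under 0.05. That value was 0.0476 by edgeR, and 0.628% of all genes passed this threshold. Angptl4 was at 106 and 83.7 CPM in mouse 3 against 172 to 221 CPM in the other libraries. Between the sides its log2 differences were -0.24, -0.24 and -0.34. The fitted change was -0.27 (SE 0.073, unadjusted p = 0.015, adjusted p = 0.987 by edgeR's quasi-likelihood test), a fold change of 0.828, inside the threshold.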

How the data were processed

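The deposited table gives, for 6 libraries, the whole number of reads counted on each gene symbol, and these counts are not normalized. Per the labels' processing notes, bcl2fastq 2.18, TopHat2 2.0.11, featureCounts 1.6.2, edgeR and the build mm9 were used, on single-end reads of 85 bp. The annotation and strand setting are not given in the sources used here. Of the columns of values, 0 belonged to other samples.

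The fit was made with edgeR 4.0.16 under R 4.3.3 (filterByExpr, TMM, quasi-likelihood, mouse and genotype as terms). It kept 17345 genes, over which the Benjamini-Hochberg adjustment of p-values ran. The 2 mouse coefficients were tested jointly. The pairing by mouse comes from the labels and the study's methods. Contralateral libraries deviated together (correlations 0.512, 0.505 and 0.639 across genes). No library was a duplicate (chi-square per degree of freedom of at least 42.1 between any pair). Levels are CPM, with a prior count of 2 for log2 values. Lengths are exon unions of GENCODE M21 (GRCm38), a build other than that of the files. Promoters of 5 of the 9 genes were found in the RefSeq table of GRCm38.p6. Scripts were tested on simulated data.

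The members and lists were chosen with earlier results of these data known. Named beside the members are the called genes of each list, or its most abundant ones where none was called, the 2 most abundant cell type markers, the 3 genes nearest in profile to the 3 most variable members, and Adamts18. Some genes that this rule selects are not reported here, and they stayed in the fits, counts and sums. Alternatives were limma-voom (limma 3.58.1), DESeq2 1.42.0, no block, RLE, upper quartile, library size, white adipocyte and epithelial scaling, other low count filters, other call rules and each mouse left out. The p-values for genotype measure the spread between these 3 pairs. Those between mice take the 2 glands of a mouse as its replicates and are set against the disagreement between contralateral glands.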

Additional observations from a re-analysis of the deposited data

How the results depend on the processing

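Of 104 alternative log2 fold changes of the 8 tested members, 91 kept their direction and stayed uncalled. Some of these crossed the fold threshold with an unadjusted p over 0.05, such as Cidea at -0.34 without mouse 1. The 2 newly called, Ppara (0.70) and Dio2 (0.73), came with epithelial scaling. So did the reversals of Prdm16 (0.28), Ebf2 (0.48), Ucp1 (0.48), Cidea (0.21) and, on the wider list, Adrb1 (0.039). With it, 2 members, 13 pathway genes and 2 fatty acid oxidation genes were called higher and 1 pathway gene lower. That scaling raises all genes by 0.50 at the median. White adipocyte scaling, which raises them by 0.12, reversed Ebf2 (0.11) and Ucp1 (0.13). Without the replicate block Ebf2 was at 0.053, the block changed no other direction among the members, and 0 members were called either way. With a mouse left out, Ebf2 ranged from -0.17 to 0.26, Ppargc1a from -0.009 to 0.26 and Ucp1 from -0.14 to 0.12, with 0.0051 without mouse 2. The lowest Ppargc1a value came without mouse 2 and the positive value of Ebf2 and the highest of Ucp1 without mouse 3.

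Among pathway genes, 2 were called in each direction. The count called lower was 1 with DESeq2 and 1 with any mouse left out. The count called higher was 1 with upper quartile scaling, library size scaling or no low count filter, and 1 to 6 with a mouse left out (6 without mouse 3, 1 without mouse 1). By edgeR's adjusted p it was 0 in both directions. That count was 1 lower (Cited1) with DESeq2, 5 higher (Tbx1, Ckmt2, Cox7a1, Epsti1 and Tmem26) with epithelial scaling, 1 lower (Cited1) and 2 higher (Ckmt2 and Cox7a1) without mouse 3, and 0 in the other alternatives. Of the fatty acid oxidation genes, 1 (Angptl4) was called lower with no threshold on the fold change. With a mouse left out, 0 to 3 were called higher (3 without mouse 3). Between mice, 0 members passed by edgeR's adjusted p. The count was 4 with DESeq2, 5 with white adipocyte scaling (where 81.5% of all genes passed), 2 with epithelial scaling (11.2%), 2 with no low count filter (4.5%) and 4 by unadjusted p. The causes were not tested. Depth limits Elovl3, Cpt1b, Ucp1 and Dio2, which had 1 to 81 counts a library, and 3 pairs limit every test.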
